A study of Homo sapiens with 30 samples.

Results

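The effect of decitabine on RNA was compared between 2 human T-cell acute lymphoblastic leukaemia (T-ALL) lines, Loucy and PER-117. The quantity examined was the difference of responses, that is, the change of a gene with decitabine in Loucy minus its change in PER-117. It was taken from 12 of the 30 libraries of a series that treated 5 such lines. The 4 groups were Loucy with decitabine, Loucy with dimethyl sulfoxide (DMSO), PER-117 with decitabine and PER-117 with DMSO, each with 3 libraries. Decitabine was given at 1 µM for 48 h and DMSO is its vehicle. Each line is a single culture-adapted leukaemia, so a difference between them is a difference between these 2 lines. Separate cultures are not named for the 3 libraries within a group, so p-values measure the spread between these samples, which may be technical.

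Decitabine is a deoxycytidine analogue that cells phosphorylate and build into new DNA, where it traps DNA methyltransferases. Methylation of CpG sites is then not copied at the next rounds of replication, and genes whose promoters were silenced by methylation can become active. The trapped enzyme is also a DNA lesion, and stalled forks and breaks can activate p53 and the interferon pathway. Which genes respond in a given leukaemia depends on which were silent there, on how well the cells take up and activate the drug and on which damage responses they have kept.

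The libraries were made from the 3′ ends of polyadenylated RNA and held 9.93 M to 15.4 M reads on genes. Levels are in CPM, read counts relative to library sizes scaled by the trimmed mean of M values (TMM), as mean ± SD of n = 3. Responses are log2 ratios of decitabine over DMSO with an approximate standard error (SE), tested with the quasi-likelihood F test of edgeR and called at a Benjamini-Hochberg adjusted p under 0.05. The T-cell markers CD3D, CD3E, CD3G, CD247, CD7 and LCK were present in all 12 libraries. CD5 averaged 0.145 and 0.254 CPM in PER-117 with decitabine and DMSO. CD2 averaged 0.559 and 0.219 CPM there, and 4.53 and 0.676 CPM in Loucy with decitabine and DMSO. The 8 T-lineage markers summed to 868 to 925 CPM in Loucy with decitabine, 1005 to 1083 CPM in Loucy with DMSO, 342 to 363 CPM in PER-117 with decitabine and 563 to 587 CPM in PER-117 with DMSO. Erythroid and epithelial markers summed to at most 0.552 CPM in every library. The 4 B-lineage markers, CD79A mainly, summed to 59.9 to 65.8 CPM in Loucy with decitabine and 40.4 to 56.5 CPM in Loucy with DMSO, against 2.03 to 3.04 CPM with decitabine and 0.210 to 0.903 CPM with DMSO in PER-117.

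DMSO replicate 3 of PER-117 stood apart. Of 27 genes high in Loucy and nearly absent from untreated PER-117, it held 26 at a median of 0.440% of their Loucy level, whereas DMSO replicates 1 and 2 held 5 and 6 of them at a median of 0. The 3 decitabine libraries of PER-117 held 22 to 24 of the same genes, at medians of 0.151% to 0.368%. The reverse set of 18 genes had medians of 0.412% to 0.561% in Loucy with decitabine and of 0.0866% to 0.121% in Loucy with DMSO. The part of an admixture of libraries in these low levels was not tested. Results that end or turn without this library are marked where they occur.

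Decitabine changed many genes in both lines, and more were called higher than lower. Of 15255 genes tested, 2404 rose and 1537 fell in Loucy, which is 15.8% and 10.1% of the genes. In PER-117, 2097 rose and 982 fell, or 13.7% and 6.44%. Genes near 0 reads with DMSO can hardly fall, so they add to the rises. Among 11035 genes with a DMSO mean of at least 1 CPM in both lines, more fell than rose in Loucy. Of these, 1057 rose and 1447 fell in Loucy, and 1176 rose and 949 fell in PER-117. The responses themselves differed for 1436 genes (9.41%), of which 588 (3.85%) had the higher response in Loucy and 848 (5.56%) had the lower. With relative log expression scaling in place of TMM the share with the higher response in Loucy was 48.5%, against 40.9% here. Which direction had more differences rested on single Loucy libraries: without Loucy DMSO replicate 1 there were 578 higher and 556 lower, and without Loucy decitabine replicates 1, 2 and 3 there were 536 and 523, 666 and 614, and 541 and 490.

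Genes were separated by these calls. In both lines 847 genes rose (5.55%) and 366 fell (2.4%). The shared rises were 35.2% of the rises in Loucy and 40.4% of those in PER-117, and the shared falls were 23.8% and 37.3% of the falls. A gene was assigned to a single line if it was called there, was not called in the other line, and its difference of responses was called in the same direction. Loucy alone had 350 rises (2.29%) and 221 falls (1.45%), and PER-117 alone had 438 rises (2.87%) and 105 falls (0.688%). Opposite calls were rare: 47 genes rose in Loucy and fell in PER-117 (0.308%), and 67 fell in Loucy and rose in PER-117 (0.439%). Genes called in a single line without a called difference were 1160 rises (7.6%) and 883 falls (5.79%) in Loucy and 745 rises (4.88%) and 464 falls (3.04%) in PER-117. A called difference with neither line called was found for 23 higher (0.151%) and 35 lower (0.229%) in Loucy, and 9504 (62.3%) were not called at all.

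**Figure D1:**
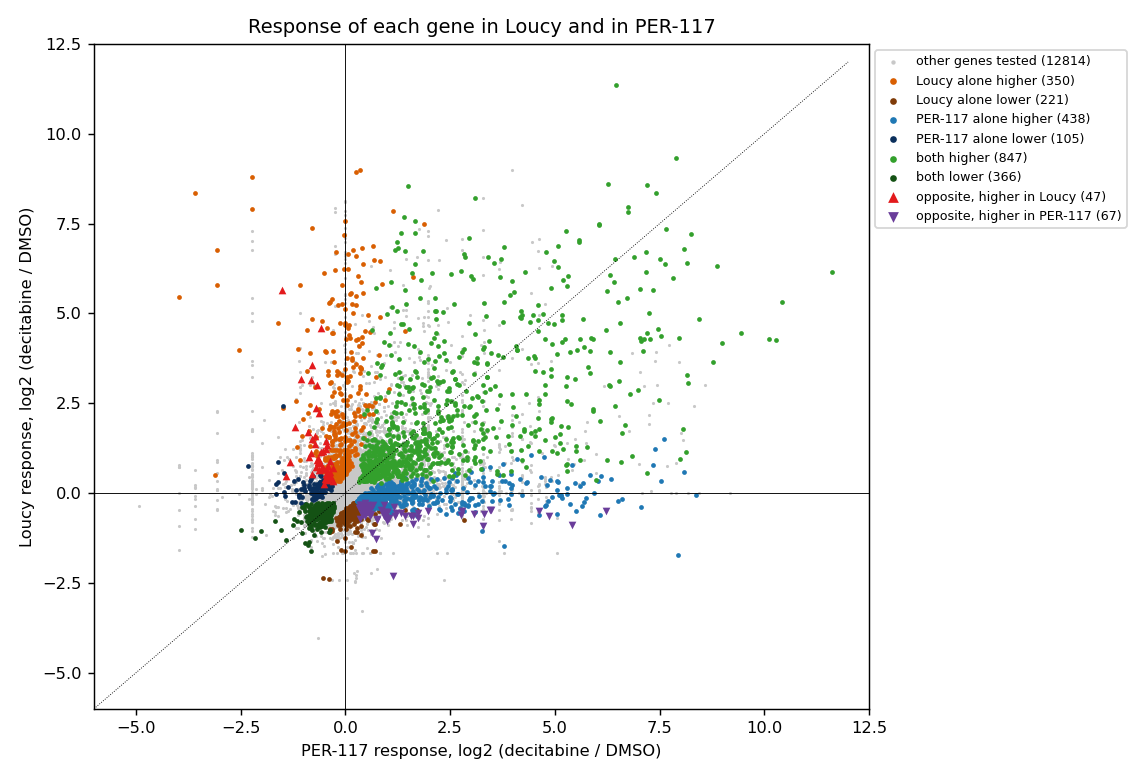
Response of each gene tested in Loucy (vertical axis) and in PER-117 (horizontal axis), as log2 of decitabine over DMSO, coloured by class, with the number of genes of each class in the key. Genes of the Loucy alone and PER-117 alone classes lie along the axes, the 847 shared rises spread widely around the dotted line of equal response, and the 47 and 67 opposite genes sit in the upper left and lower right.

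Sizes differed between rises and falls. The shared rises had median log2 responses of 1.43 in Loucy and 1.74 in PER-117, and 494 of them were at least 2-fold in each line. With groups at 0 reads set to a floor of 3 reads over the group, these medians were 1.41 and 1.67. The shared falls had medians of -0.48 and -0.49. Rises of Loucy alone had medians of 1.60 in Loucy and -0.11 in PER-117, and rises of PER-117 alone had -0.09 in Loucy and 1.30 in PER-117. Falls of a single line were smaller, with medians of -0.56 for Loucy alone and -0.66 for PER-117 alone.

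The single-line rises and the opposite genes were ordered by the levels of untreated cells. With DMSO, 35.1% of genes tested were called higher in Loucy and 30.8% lower. Of the 350 rises of Loucy alone, 300 (85.7%) had the lower untreated level in Loucy, against 47.2% of all genes tested. Of the 438 rises of PER-117 alone, 392 (89.5%) had the higher untreated level in Loucy, against 52.8% of all genes. Of the opposite genes, 40 of the 47 that rose in Loucy were lower in untreated Loucy, and 60 of the 67 that rose in PER-117 were higher there. Of the shared rises 43.1% were lower in untreated Loucy. Untreated levels and responses share the DMSO libraries, so the order was repeated with the level from DMSO replicate 1 and the calls from the other libraries. It was then 84.3% of 242 rises of Loucy alone and 90.5% of 242 rises of PER-117 alone. A difference is harder to call where the other line has few reads, so the class rule itself favours this order. Holding out a library does not remove that. Of the 1160 rises in Loucy without a called difference, 37.8% were called higher and 25.5% lower in untreated Loucy. For the 745 such rises in PER-117 these shares were 46.2% and 25.2%.

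Single-line rises were a larger share of the genes low only in the line that rose than of genes low in neither line. Low is taken as a mean under 1 CPM with DMSO. Most single-line rises were nevertheless low in neither line. Of the 350 rises of Loucy alone, 198 were low in neither line and 111 in Loucy only. Of the 438 rises of PER-117 alone, 300 were low in neither line and 127 in PER-117 only. Of 991 genes low in Loucy and not in PER-117, 11.2% rose in Loucy alone. Of these 991 genes, 29.9% were called higher in Loucy and 14.9% in PER-117, whatever the difference. Of 1712 genes low in PER-117 and not in Loucy, 7.42% rose in PER-117 alone and 0.350% in Loucy alone. A difference is hard to call where PER-117 has few reads, and the part of this in the small last share was not tested. Of these 1712 genes, 20.6% were called higher in Loucy and 21.7% in PER-117. Of the rises in Loucy among them, 208 had no called difference. Of 11035 genes low in neither line, 1.79% rose in Loucy alone and 2.72% in PER-117 alone. The 1517 genes low in both lines had the largest share of shared rises, 16.5%, but 1381 of them reached the level of the filter on low counts in fewer than 3 of the 6 DMSO libraries and so passed with their decitabine libraries. Of all 17232 genes with at least 1 read and low in both lines, 7.10% were called higher in Loucy and 3.91% in PER-117.

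**Figure D2:**
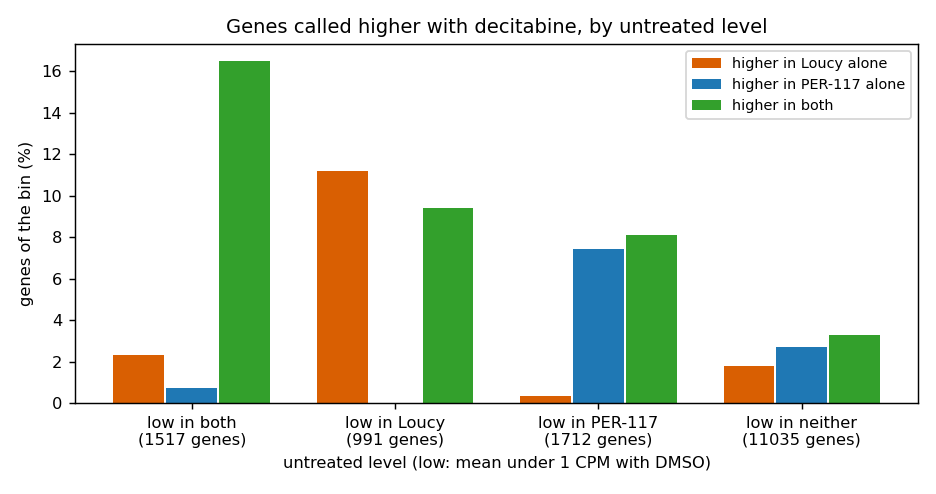
Percentage of genes called higher with decitabine in Loucy alone, in PER-117 alone and in both lines (bars), in 4 groups of genes by whether the mean DMSO level was under 1 CPM. Single-line rises stand out at 11.2% for Loucy alone among genes low in Loucy and at 7.42% for PER-117 alone among genes low in PER-117. These classes need a called difference, which is harder to call where the other line has few reads. Whatever the difference, 29.9% of genes low in Loucy were called higher in Loucy and 14.9% in PER-117. Of genes low in PER-117, 20.6% were called higher in Loucy and 21.7% in PER-117.

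Most of these rises stayed below the level of the other line. Of the 111 genes low in Loucy that rose in Loucy alone, the median level with decitabine was 23.8% of that in untreated PER-117, and 18 reached 100%. Of the 127 genes low in PER-117 that rose in PER-117 alone, the median was 11.1% of that in untreated Loucy, and 4 reached 100%. Of these genes, 9 and 4 stayed under 2% of the other line's untreated level. The median absolute log2 gap between Loucy and PER-117 was 1.22 with decitabine and 2.04 with DMSO for rises of Loucy alone, 1.23 and 2.36 for rises of PER-117 alone, and 0.705 and 0.746 for all genes tested. Most single-line rises began lower in the line that rose, and the gap uses the libraries of the calls. The smaller gap in these classes therefore largely follows from the class rule and is no separate result. The lines remained apart in general: 66.1% of genes differed between them with decitabine and 66.0% with DMSO.

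The genes GZMA, LTB, HHEX and FDXR are given as examples, with the 250 bases before their RefSeq start. No rise of Loucy alone is among them. GZMA encodes granzyme A, a serine protease of cytotoxic granules, and lies at chr5:55102648-55110252. It had 46.7, 41.3 and 53.7 CPM in Loucy with decitabine, 4.59, 5.30 and 6.15 CPM in Loucy with DMSO, 36.6, 46.6 and 46.2 CPM in PER-117 with decitabine and 68.2, 87.5 and 71.5 CPM in PER-117 with DMSO. It rose in Loucy (log2 3.14 ± 0.16, SE) and fell in PER-117 (-0.81 ± 0.14), so that the groups do not overlap within either line and the treated lines reached about the same level. Its difference of responses was 3.95 ± 0.21 (edgeR, adjusted p = 2.1e-09). LTB, the membrane anchor of the lymphotoxin heterotrimer (chr6:31580525-31582522), had 143, 158 and 171 CPM in Loucy with decitabine and 54.5, 51.4 and 39.5 CPM in Loucy with DMSO. In PER-117 it had 821, 1100.0 and 1028 CPM with decitabine and 1542, 2098 and 1845 CPM with DMSO. It moved in opposite directions at levels that stayed far apart, with a difference of 2.59 ± 0.21 (adjusted p = 1.7e-07). HHEX, a homeobox factor of blood progenitors (chr10:92689951-92695646), was high in Loucy under both treatments, with 89.7 to 94.9 CPM with decitabine and 93.6 to 134 CPM with DMSO. In PER-117 it had 6.75, 7.63 and 10.1 CPM with decitabine and 0, 0.105 and 0.329 CPM with DMSO. The highest of these DMSO values is that of replicate 3, and the difference of responses was -5.96 ± 0.47 with it (adjusted p = 1.6e-07) and -7.24 without it. FDXR, a mitochondrial ferredoxin reductase and p53 target (chr17:74862497-74873031), is shown for the p53 list and was chosen after its values were seen. It had 17.7, 21.0 and 17.3 CPM in Loucy with decitabine and 14.9, 20.1 and 16.4 CPM in Loucy with DMSO, which overlap. In PER-117 it had 107, 91.7 and 121 CPM with decitabine and 32.6, 31.1 and 33.2 CPM with DMSO. The promoters below are from RefSeq on GRCh38.p14, written 5′ to 3′ on the gene's strand, with each CG dinucleotide, the site of DNA methylation, in capitals. They lie at chr5:55102396-55102645 (GZMA, plus strand), chr6:31582426-31582675 (LTB, minus), chr10:92689705-92689954 (HHEX, plus) and chr17:74872995-74873244 (FDXR, minus).
GZMA: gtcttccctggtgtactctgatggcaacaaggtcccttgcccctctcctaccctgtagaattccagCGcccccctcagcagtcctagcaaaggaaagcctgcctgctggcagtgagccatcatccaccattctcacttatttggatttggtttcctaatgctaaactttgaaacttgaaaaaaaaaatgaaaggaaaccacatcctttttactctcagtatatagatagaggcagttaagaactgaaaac
LTB: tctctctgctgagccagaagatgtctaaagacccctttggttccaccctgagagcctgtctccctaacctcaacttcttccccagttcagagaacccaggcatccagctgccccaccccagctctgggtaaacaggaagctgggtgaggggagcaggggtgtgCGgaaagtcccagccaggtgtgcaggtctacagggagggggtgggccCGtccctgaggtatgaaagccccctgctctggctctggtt
HHEX: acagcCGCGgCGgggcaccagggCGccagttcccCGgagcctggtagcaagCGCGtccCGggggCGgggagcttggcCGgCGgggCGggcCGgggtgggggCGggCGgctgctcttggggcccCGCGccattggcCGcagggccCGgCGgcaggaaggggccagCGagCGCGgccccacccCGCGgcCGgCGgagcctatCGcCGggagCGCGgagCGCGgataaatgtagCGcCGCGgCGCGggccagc
FDXR: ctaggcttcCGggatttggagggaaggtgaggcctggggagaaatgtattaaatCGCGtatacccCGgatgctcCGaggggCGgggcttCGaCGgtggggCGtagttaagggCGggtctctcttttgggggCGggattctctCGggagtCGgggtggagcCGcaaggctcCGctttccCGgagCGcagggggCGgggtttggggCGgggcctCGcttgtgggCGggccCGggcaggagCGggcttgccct
GZMA has 1 CG and LTB 2, whereas HHEX has 38 and FDXR 23. The 4 genes were picked singly, so their counts do not stand for their classes.

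The same count was made over the classes. CG, searched on the given strand (it reads the same on both), was counted for 10012 of 11713 protein-coding genes tested off chromosome 8 (85.5%) that have a RefSeq promoter. The median was 21 over all of them, and 8.46% had fewer than 5. Rises of Loucy alone had a median of 16, with 26.6% of 229 under 5, and rises of PER-117 alone had a median of 22, with 7.76% of 322 under 5. Among genes low in neither line, the values were 18 and 24.1% of 141 for rises of Loucy alone and 22 and 7.97% of 226 for rises of PER-117 alone. Uncalled genes of that kind had 21 and 4.44% of 5094. The contrast was smaller among genes low in Loucy only, with 15 and 25.4% of 59 for rises of Loucy alone and 17 and 17.4% of 144 for uncalled genes. Among genes low in both lines these were 6.5 and 42.3% of 26, and 14 and 23.6% of 148. Among genes low in PER-117 only, rises of PER-117 alone had 21 and 6.74% of 89, and uncalled genes 19 and 16.4% of 535. At all levels together, shared rises lay between the rises of Loucy alone and of PER-117 alone, at 18 and 12.8% of 586. Rises in Loucy whose difference was not called had 17 and 20.2% of 717. All rises in Loucy had 18 and 18.8% of 1565, and all rises in PER-117 had 20 and 10.7% of 1467. Of all 27305 promoters in the reference table, 93.6% hold a CG and the median is 11. Only 73.3% of the genes that rose in Loucy and fell in PER-117 had a promoter in the table. Their median of 16 over 33 genes, with quartiles of 2 and 29, is therefore incomplete. GZMA and LTB lie at its low end. These counts describe sequence and say nothing of the methylation of these promoters, which was not measured in these libraries.

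**Figure D3:**
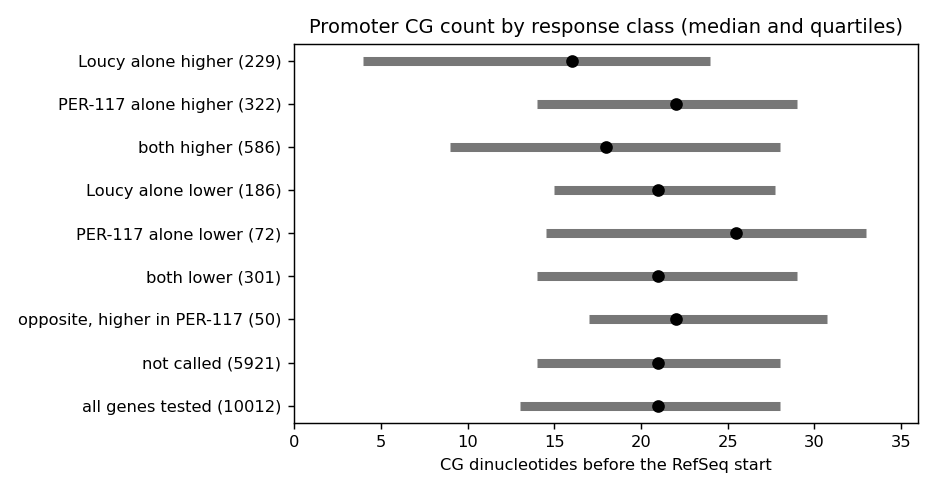
Number of CG dinucleotides in the 250 bases before the RefSeq start (horizontal axis) by response class, with the median as a point and the quartiles as a line, and the number of genes beside each class. The median is 16 for rises of Loucy alone and 22 for rises of PER-117 alone, against 21 for all genes tested.

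Ranked by the smaller of the 2 responses, the first 8 of the genes that rose in Loucy and fell in PER-117 held LTB and a receptor of the same tumour necrosis factor (TNF) system. Beside LTB, TNFRSF1B, the TNF receptor 2 gene, had 97.7, 85.8 and 105 CPM in Loucy with decitabine and 34.1, 34.3 and 33 CPM in Loucy with DMSO, against 45.1, 40.6 and 49.6 CPM with decitabine and 76.3, 75.1 and 82.4 CPM with DMSO in PER-117. The treatments exchanged the order of the lines, with Loucy above PER-117 with decitabine and below it with DMSO, and the difference was 2.29 ± 0.15 (adjusted p = 3.9e-08). TNFSF14, which encodes the ligand LIGHT and was named from the cytokine list and not among those 8, averaged 2.95 ± 0.94 CPM with decitabine and 0.604 ± 0.166 CPM with DMSO in Loucy and 45.8 ± 2.4 CPM with decitabine and 71.2 ± 5.4 CPM with DMSO in PER-117, with a difference of 2.87 ± 0.31. CHRNA9, a nicotinic acetylcholine receptor subunit, averaged 1.27 ± 0.11 CPM with decitabine and 0.132 ± 0.071 CPM with DMSO in Loucy and 12.7 ± 0.8 CPM with decitabine and 26.4 ± 3.0 CPM with DMSO in PER-117. APLN, which encodes the peptide apelin, averaged 7.01 ± 0.53 CPM with decitabine and 3.85 ± 0.88 CPM with DMSO in Loucy and 43.2 ± 8.1 CPM with decitabine and 108 ± 19 CPM with DMSO in PER-117. The dendrite protein gene DDN, the envoplakin gene EVPL and the retinoid-induced gene RARRES3 completed them. The falls of EVPL and RARRES3 in PER-117 were adjusted p = 0.038 and 0.041 and were each lost when any of 4 single PER-117 libraries was left out.

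The genes that fell in Loucy and rose in PER-117 were ranked in the same way. TUBB2A, a beta-tubulin gene (chr6:3153669-3157526) whose reads can be shared with its near copy TUBB2B, had 54.1, 57.7 and 55.1 CPM in Loucy with decitabine and 93.0, 84.6 and 99.6 CPM in Loucy with DMSO. In PER-117 it had 95.9, 108 and 86.7 CPM with decitabine and 45.1, 54.0 and 46.8 CPM with DMSO. Decitabine thus nearly exchanged its levels between the lines, with a difference of -1.73 ± 0.16 (adjusted p = 1.1e-06). ENOSF1, an antisense neighbour of the thymidylate synthase gene, averaged 1.89 ± 0.43 CPM with decitabine and 4.49 ± 0.42 CPM with DMSO in Loucy and 24.6 ± 0.8 CPM with decitabine and 14.7 ± 0.5 CPM with DMSO in PER-117. ADRB1, the beta-1 adrenergic receptor gene, averaged 8.31 ± 0.61 CPM with decitabine and 13.7 ± 0.9 CPM with DMSO in Loucy and 5.26 ± 0.40 CPM with decitabine and 3.12 ± 0.36 CPM with DMSO in PER-117. GPC2, a cell-surface glypican, averaged 8.81 ± 0.42 CPM with decitabine and 15.9 ± 3.1 CPM with DMSO in Loucy and 2.80 ± 0.22 CPM with decitabine and 0.902 ± 0.544 CPM with DMSO in PER-117. ST3GAL4, a sialyltransferase, had a difference of -1.75 ± 0.30 and the plexin gene PLXNB1 -2.44 ± 0.52. The fall of ST3GAL4 in Loucy was lost without Loucy DMSO replicate 1 or 2 or decitabine replicate 1. That of PLXNB1 was lost without Loucy decitabine replicate 1, and its rise in PER-117 without PER-117 DMSO replicate 1 or 2 or decitabine replicate 1. FAM72D is a member of a near-identical gene family, so its -1.50 ± 0.32 is uncertain. Its fall in Loucy was lost without Loucy DMSO replicate 1 or 3 or decitabine replicate 3, and its rise in PER-117 without PER-117 DMSO replicate 1 or 2 or decitabine replicate 1 or 2.

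The counts of opposite genes moved with single libraries. The 47 genes became 29 without PER-117 DMSO replicate 3 and 27 without PER-117 decitabine replicate 2, and the 67 became 24 without Loucy decitabine replicate 1 or 3. The genes that rose in Loucy became the larger class when any single Loucy library other than DMSO replicate 3 was left out: 49 and 34, and 53 and 38, without DMSO replicates 1 and 2, and 55 and 24, 63 and 41, and 48 and 24 without decitabine replicates 1 to 3. When all 30 libraries were fitted together, whose common dispersion was 0.0280 against 0.0160 for the 12, the counts were 9 and 5. GZMA, TNFRSF1B and ENOSF1 kept their response in Loucy and their difference there, and lost the call in PER-117.

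**Figure D4:**
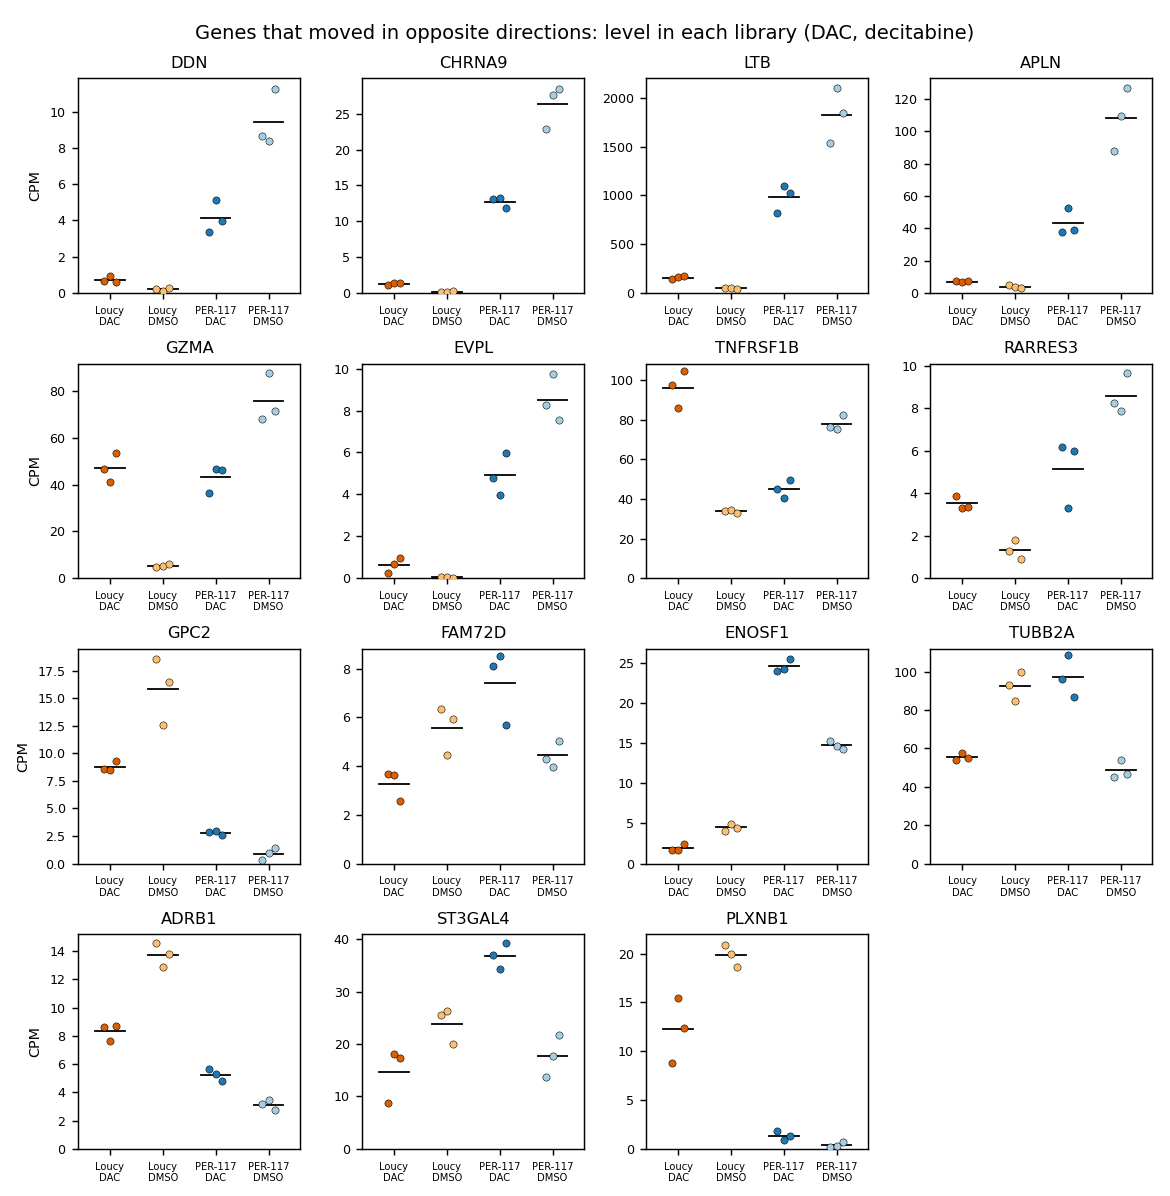
Level in CPM (vertical axis, from 0) of 15 genes named from the opposite classes in each library (points) of the 4 groups, with the group mean as a line. The upper 8 genes rose in Loucy and fell in PER-117, and the lower 7 fell in Loucy and rose in PER-117. The treated groups of GZMA meet at means of 47.2 and 43.1 CPM.

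Rises of Loucy alone included genes with no reads in untreated Loucy. PRDM8, a histone methyltransferase family member (chr4:80183879-80204329), had 1.43, 2.33 and 1.81 CPM in Loucy with decitabine and 0 reads in all 3 Loucy libraries with DMSO, so it was at least 28.7-fold higher, taking 3 reads over the DMSO group as the floor. In PER-117 it had 18.4 ± 1.2 CPM with decitabine and 18.5 ± 0.6 CPM with DMSO, a change of -0.01 ± 0.16 that did not pass (adjusted p = 0.99). ZFYVE28 was at least 15.6-fold higher in Loucy. The nuclear factor gene NFIA had 4.57 ± 0.69 CPM in Loucy with decitabine and 1 read over the 3 Loucy libraries with DMSO, a ratio of 210 (exact 95% interval 37.3 to 8348). These genes stayed well below PER-117. Among genes low in neither line, SCN3A, a sodium channel gene (chr2:165087522-165204067), had 18.8, 28.4 and 25.1 CPM in Loucy with decitabine and 1.62, 1.15 and 1.93 CPM in Loucy with DMSO. It had 9.16 ± 1.10 CPM with decitabine and 11.2 ± 2.1 CPM with DMSO in PER-117, so Loucy passed PER-117, and the difference was 4.23 ± 0.31 (adjusted p = 7.6e-08). SNAI1, the repressor Snail, averaged 12.6 ± 1.0 CPM with decitabine and 1.58 ± 0.30 CPM with DMSO in Loucy and 5.03 ± 0.86 CPM with decitabine and 3.97 ± 0.65 CPM with DMSO in PER-117, with a difference of 2.63 ± 0.31. The membrane-bending protein gene MTSS1 and the ubiquitin ligase gene RNF152 had differences of 3.10 ± 0.47 and 3.08 ± 0.55.

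Rises of Loucy alone that were low in PER-117 under both treatments rest on few PER-117 reads. TOX2, an HMG-box factor of the T and NK lineages, had 230, 172 and 164 CPM in Loucy with decitabine and 4.45, 5.97 and 1.17 CPM in Loucy with DMSO, and 1.06 ± 0.40 CPM with decitabine and 0.771 ± 0.790 CPM with DMSO in PER-117. MPO, myeloperoxidase, had 18.2, 14.4 and 16.1 CPM in Loucy with decitabine, 1.08, 0.965 and 0.967 CPM in Loucy with DMSO, and 0.239 ± 0.265 CPM with decitabine and 0.583 ± 0.731 CPM with DMSO in PER-117. Their rises in Loucy were called in every fit that left out a library, but their called differences of 5.16 ± 1.02 and 5.13 ± 0.93 were lost without PER-117 DMSO replicate 3 (3.95 and 3.35). The same holds for PRSS35 and RHOB. The difference for EMP1 was lost without that library or PER-117 decitabine replicate 1. PRSS35 had 13.6, 15.5 and 13.6 CPM in Loucy with decitabine, 1 read over the 3 Loucy libraries with DMSO and no reads in PER-117 with decitabine. The differences for CD109 and SLC9A9 passed in 2 and 5 of the 12 fits that left out a library.

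Rises of PER-117 alone mirrored these. FAM210B, a mitochondrial membrane protein gene (chr20:56358915-56368663), had 7.67, 6.32 and 9.45 CPM in Loucy with decitabine and 4.99, 5.79 and 4.70 CPM in Loucy with DMSO, a change that did not pass (adjusted p = 0.10). In PER-117 it had 2.17, 1.74 and 4.17 CPM with decitabine and 0 reads in all 3 DMSO libraries, so it was at least 24.4-fold higher. In PER-117 with DMSO BTBD6 and ZNF836 were at 0 reads too, and decitabine raised BTBD6 at least 16.9-fold and ZNF836 at least 8.85-fold there. Among genes low in neither line, GCNA, a germ cell nuclear antigen gene on chrX:71578411-71613583, had 3.91 ± 0.28 CPM with decitabine and 3.23 ± 0.63 CPM with DMSO in Loucy. It had 20.8, 18.4 and 25.1 CPM in PER-117 with decitabine and 1.35, 1.47 and 1.43 CPM in PER-117 with DMSO, with a difference of -3.63 ± 0.31 (adjusted p = 5.3e-07). LAPTM4B, a lysosomal membrane protein gene, averaged 72.5 ± 4.2 CPM with decitabine and 71.6 ± 9.0 CPM with DMSO in Loucy and 20.3 ± 3.6 CPM with decitabine and 1.73 ± 0.86 CPM with DMSO in PER-117. TSHZ3, a zinc finger homeobox gene, averaged 10.0 ± 1.0 CPM with decitabine and 12.8 ± 1.6 CPM with DMSO in Loucy and 19.8 ± 0.7 CPM with decitabine and 2.63 ± 0.81 CPM with DMSO in PER-117, so PER-117 passed Loucy. HSD3B7, an enzyme of bile acid synthesis, had a difference of -3.16 ± 0.53. Of genes low in both lines, the endothelial adhesion molecule gene ESAM averaged 1.85 ± 0.25 CPM with decitabine and 0.913 ± 0.073 CPM with DMSO in Loucy and 13.9 ± 2.0 CPM with decitabine and 0.518 ± 0.460 CPM with DMSO in PER-117. ANKRD9 had a difference of -3.42 ± 0.61 and CLIP3 one of -3.38 ± 0.86, which was lost without Loucy DMSO replicate 1 or 3.

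Falls of a single line were small. The 221 falls of Loucy alone became 84 and 77 without Loucy decitabine replicates 1 and 3, and the 105 of PER-117 alone became 185 without Loucy DMSO replicate 3 and 64 and 58 without PER-117 DMSO replicate 2 and decitabine replicate 1. HIST1H1D, a linker histone gene, had 1.63, 5.22 and 2.71 CPM in Loucy with decitabine and 13.8, 18.7 and 18.4 CPM in Loucy with DMSO, against 8.87 ± 1.00 CPM with decitabine and 11.6 ± 2.2 CPM with DMSO in PER-117. Its difference was -2.01 ± 0.38 (adjusted p = 0.0020). The N-cadherin gene CDH2, the kinase subunit gene PRKAR2B, DIXDC1 and C8orf88 were under 1 CPM in PER-117 and fell by 0.47 to 0.76 in Loucy, and their differences passed in only 3 to 6 of 12 fits that left out a library. Of the falls of PER-117 alone, TRPM2, a calcium channel gene, averaged 1.76 ± 0.36 CPM with decitabine and 1.79 ± 0.27 CPM with DMSO in Loucy and 7.98 ± 0.90 CPM with decitabine and 25.3 ± 1.8 CPM with DMSO in PER-117. TNFRSF8, which encodes CD30, averaged 2.15 ± 0.80 CPM with decitabine and 6.90 ± 0.31 CPM with DMSO in PER-117, and SERINC2 averaged 3.28 ± 0.17 CPM with decitabine and 9.03 ± 0.88 CPM with DMSO. Neither passed in Loucy, and their differences were 1.91 ± 0.34 and 2.02 ± 0.35. The differences of RNF165 and SUSD4 were lost without Loucy decitabine replicate 1 and PER-117 DMSO replicate 1.

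Both lines raised genes that had at most 2 reads in each DMSO group. SDC4, which encodes a syndecan (chr20:45325288-45348424), had 7.80, 6.20 and 5.26 CPM in Loucy with decitabine and 1.8, 2.32 and 3.04 CPM in PER-117 with decitabine, with 0 reads in all 6 DMSO libraries, and was at least 99.1-fold and 21.4-fold higher. GPER1, a membrane oestrogen receptor gene, averaged 26.4 ± 7.1 CPM in Loucy with decitabine, with 0 reads with DMSO (at least 394-fold), and 4.08 ± 0.49 CPM in PER-117 with decitabine, with 1 read with DMSO (ratio 112, exact 95% interval 19.7 to 4446). TRH, the thyrotropin-releasing hormone gene, averaged 20.9 ± 2.8 CPM in treated Loucy and 0.766 ± 0.245 CPM in treated PER-117. The thromboxane receptor gene TBXA2R, the elastin gene ELN, CREB5 and the placental growth factor gene PGF followed the same pattern. PNMA6E, whose family members are near copies, averaged 0.705 ± 0.216 CPM in treated Loucy and 31 ± 11.4 CPM in treated PER-117, with 0 reads with DMSO in either. None of these 8 differences of responses passed, the lowest adjusted p being 0.21 for GPER1. With at most 2 reads in each DMSO group a difference can hardly be called, so this does not show that the responses were equal.

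Shared falls were smaller than shared rises. BCL2, the anti-apoptotic gene, had 71.7, 68.4 and 60.8 CPM in Loucy with decitabine and 184, 173 and 166 CPM in Loucy with DMSO, against 10.4, 9.47 and 11 CPM with decitabine and 18.4, 20.4 and 21.5 CPM with DMSO in PER-117. It fell by 1.38 ± 0.10 in Loucy and by 0.96 ± 0.12 in PER-117, a difference of -0.42 ± 0.16 that did not pass (adjusted p = 0.12). IGLL1, a surrogate light chain gene, fell by 1.30 ± 0.12 and 1.41 ± 0.12, to 141 ± 8 CPM in treated Loucy and 109 ± 15 CPM in treated PER-117. The actin regulator gene CORO1A fell by 1.10 ± 0.19 and 1.04 ± 0.20, and MANEAL by 1.05 ± 0.22 and 2.01 ± 0.23. MT-ND6, a mitochondrial gene encoded opposite to its neighbours, fell by 1.24 ± 0.21 and 2.17 ± 0.21, and the fall in Loucy was lost when reads were counted without strand. In bulk RNA, fewer cells of a kind and less RNA per cell cannot be told apart.

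The gene lists below are read against all genes tested, of which 15.8% rose and 10.1% fell in Loucy and 13.7% rose and 6.44% fell in PER-117. The difference of responses was called positive for 3.85% and negative for 5.56% of all genes tested. The p53 targets rose mainly in PER-117. Of 38 tested, 11 rose and 1 fell in Loucy, and 25 rose in PER-117. The difference was called positive for 1 and negative for 18, and 13 rose in PER-117 alone. With all 30 libraries fitted together, 4 rose in Loucy and 20 in PER-117, with 1 positive and 11 negative differences. The median response was 0.11 in Loucy and 0.88 in PER-117 (0.86 with the gene at 0 reads set to the floor), against 0.02 and 0.07 over all genes tested. CDKN1A, which encodes the cell-cycle inhibitor p21 and was chosen after its values were seen, rose in both lines, to 21.7 ± 0.8 CPM with decitabine against 12.2 ± 1.9 CPM with DMSO in Loucy and to 62.9 ± 7.0 CPM with decitabine against 13.3 ± 1.7 CPM with DMSO in PER-117, with a difference of -1.41 ± 0.20 (adjusted p = 0.00011). FDXR, shown above, rose by 1.72 ± 0.13 in PER-117 and changed by 0.12 ± 0.14 in Loucy (adjusted p = 0.56). PHLDA3, an inhibitor of AKT, averaged 6.16 ± 1.48 CPM with decitabine and 5.78 ± 1.84 CPM with DMSO in Loucy and 11.2 ± 3.4 CPM with decitabine and 1.93 ± 0.52 CPM with DMSO in PER-117. TP53INP1, which promotes p53 activity, rose in both lines, with a difference of -4.49 ± 0.49 that was -6.08 without PER-117 DMSO replicate 3. EPS8L2, an actin regulator, was the exception, averaging 3.49 ± 0.27 CPM with decitabine and 0.491 ± 0.224 CPM with DMSO in Loucy and 10.7 ± 0.4 CPM with decitabine and 8.64 ± 0.56 CPM with DMSO in PER-117. The difference for PLK2 passed in 5 of the 12 fits that left out a library.

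Mitosis genes fell mainly in Loucy. Of 50 tested, 30 fell in Loucy and 6 rose in PER-117. The difference was negative for 29, and 23 fell in Loucy alone. Medians were -0.37 in Loucy and 0.18 in PER-117. CENPE, the kinetochore motor gene, had 25.2, 34.0 and 28.9 CPM in Loucy with decitabine and 56.3, 54.1 and 74.9 CPM in Loucy with DMSO, against 64.8, 42.2 and 52.3 CPM with decitabine and 53.4, 32.7 and 44.7 CPM with DMSO in PER-117. The groups separate in Loucy and overlap in PER-117, and the difference was -1.36 ± 0.26 (adjusted p = 0.0020). CENPF, another kinetochore gene, averaged 195 ± 20 CPM with decitabine and 368 ± 54 CPM with DMSO in Loucy and 367 ± 88 CPM with decitabine and 284 ± 45 CPM with DMSO in PER-117. HMMR, a spindle protein gene, was opposite, at 19.1 ± 1.0 CPM with decitabine and 28.4 ± 0.4 CPM with DMSO in Loucy and 56.1 ± 2.6 CPM with decitabine and 36.7 ± 4.4 CPM with DMSO in PER-117. ASPM had a difference of -0.89 ± 0.21. With all 30 libraries fitted together 13 fell in Loucy and 5 had a called difference. Of the 50 genes of DNA replication, by contrast, 13 fell in Loucy and 7 in PER-117, with 3 called differences. Of 25 replication-dependent histone genes, whose main transcripts lack poly(A) tails, 5 rose and 8 fell in Loucy and 7 rose and 1 fell in PER-117, and all 7 called differences were negative, of which 2 were left with all 30 libraries. HIST1H1B averaged 2.18 ± 0.88 CPM with decitabine and 11.4 ± 2.2 CPM with DMSO in Loucy and 7.56 ± 2.36 CPM with decitabine and 11 ± 1.5 CPM with DMSO in PER-117.

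Interferon-stimulated genes and cytokines rose more often in Loucy. Of 40 interferon-stimulated genes tested, 20 rose and 2 fell in Loucy, and 7 rose and 3 fell in PER-117, where the rises were 17.5% of the list against 13.7% of all genes. The difference was positive for 13 and negative for 2, and medians were 0.59 and 0.17. IFIT3, an antiviral gene (chr10:89327894-89340971), had 2.24, 2.21 and 3.94 CPM in Loucy with decitabine and 0.0675, 0.181 and 0.138 CPM in Loucy with DMSO, and 2.36 ± 0.04 CPM with decitabine and 2.34 ± 0.47 CPM with DMSO in PER-117. Treated Loucy thus came to the level that PER-117 held under either treatment, with a difference of 4.28 ± 0.58 (adjusted p = 7.6e-05). OAS1, an RNA sensor, averaged 2.55 ± 1.29 CPM with decitabine and 0.411 ± 0.069 CPM with DMSO in Loucy and 1.31 ± 0.61 CPM with decitabine and 2.90 ± 1.46 CPM with DMSO in PER-117, and IFI44L averaged 4.06 ± 1.07 CPM with decitabine and 0.376 ± 0.120 CPM with DMSO in Loucy and 6.12 ± 0.18 CPM with decitabine and 7.01 ± 2.31 CPM with DMSO in PER-117. HERC5, the ISG15 ligase, went the other way. It was at 105 ± 12 CPM with decitabine and 104 ± 19 CPM with DMSO in Loucy and rose in PER-117, at 2.09 ± 1.17 CPM with decitabine and 0.438 ± 0.117 CPM with DMSO. Of 26 cytokine and chemokine genes, 18 rose in Loucy, and 5 rose and 4 fell in PER-117, with 8 positive differences and medians of 2.23 and 0.17 (0.07 with genes at 0 reads set to the floor). Of these 26, 10 passed the filter with their decitabine libraries, so part of the count in Loucy is fixed by the filter. At a minimum count of 50, 12 of 17 rose in Loucy, 2 rose and 4 fell in PER-117, and 8 differences were again positive. LTA and TNF, which neighbour LTB on chromosome 6, averaged 2.12 ± 0.51 and 5.07 ± 0.48 CPM in Loucy with decitabine and 0.134 ± 0.071 and 0.324 ± 0.238 CPM in Loucy with DMSO. In PER-117 they averaged 11.6 ± 3.0 and 4.35 ± 0.92 CPM with decitabine and 16.1 ± 2.7 and 3.93 ± 1.10 CPM with DMSO. Without PER-117 DMSO replicate 3 the interferon-stimulated genes had 10 positive and 3 negative differences. With all 30 libraries they had 6 and 1, with 13 rises in Loucy and 5 in PER-117, and the cytokine list had 6 positive differences.

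Genes of presentation showed both directions. Of 18 genes of MHC class I presentation, 6 rose and 1 fell in Loucy, and 2 rose and 7 fell in PER-117. The 33.3% that rose in Loucy and the 38.9% that fell in PER-117 compare with 15.8% and 6.44% of all genes, and with all 30 libraries they were 3 and 2 genes. ERAP2, a peptide-trimming protease, averaged 33 ± 3.2 CPM with decitabine and 17.5 ± 1.9 CPM with DMSO in Loucy and 22.8 ± 1.5 CPM with decitabine and 36.3 ± 1.8 CPM with DMSO in PER-117, an exchange of order, with a difference of 1.59 ± 0.18 (adjusted p = 9.7e-06). NLRC5, the transactivator of class I genes, had a difference of 0.88 ± 0.16, but its fall in PER-117 was lost without PER-117 DMSO replicate 2.

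**Figure D5:**
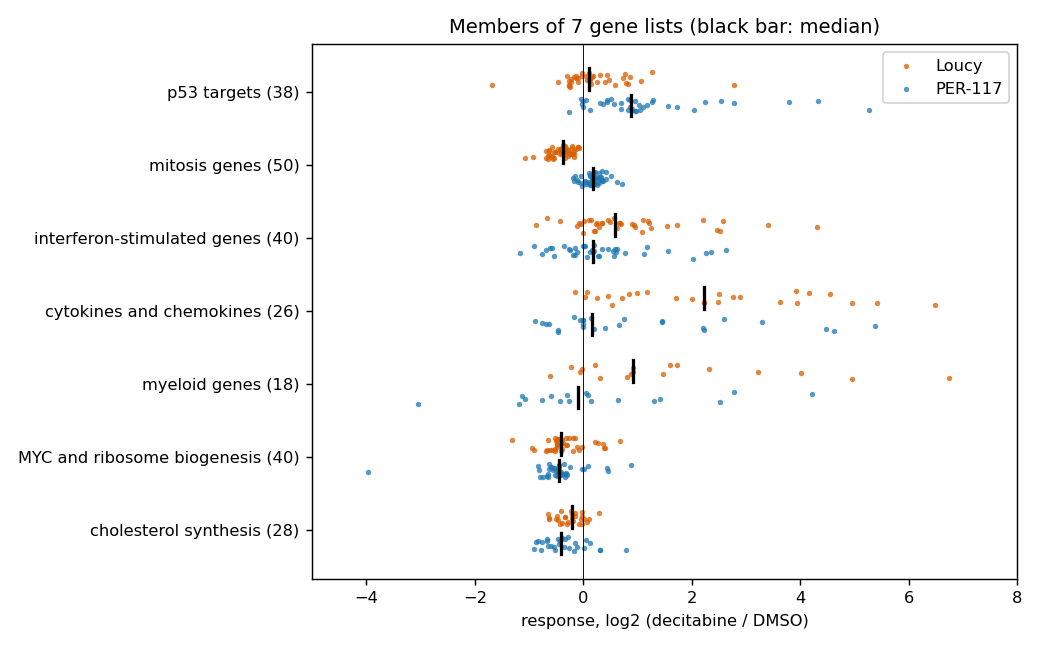
Response of each tested member (points) of 7 gene lists in Loucy and in PER-117, as log2 of decitabine over DMSO on the horizontal axis, with the median as a black bar and the number of members beside each name. The p53 and mitosis lists sit further right in PER-117, the interferon, cytokine and myeloid lists further right in Loucy, and the ribosome biogenesis and cholesterol lists lie left of 0 in both.

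Lineage genes diverged by list. Of 18 myeloid genes, 12 rose and 1 fell in Loucy, and 5 rose and 2 fell in PER-117, with 6 positive differences. Without PER-117 DMSO replicate 3 there were 4 positive and 1 negative, and with all 30 libraries 9 rises in Loucy and 3 positive differences. CEBPA, a granulocyte transcription factor, rose in both lines. It averaged 1.05 ± 0.21 CPM in Loucy with decitabine and had 0 reads with DMSO (at least 16.3-fold), and averaged 11.4 ± 0.8 CPM with decitabine and 4.27 ± 0.77 CPM with DMSO in PER-117. CTSG, cathepsin G, averaged 13.6 ± 2.2 CPM with decitabine and 7.2 ± 2.16 CPM with DMSO in Loucy and 0.832 ± 0.204 CPM with decitabine and 1.75 ± 0.25 CPM with DMSO in PER-117, and CLEC12A had a difference of 3.17 ± 0.70. The myeloid markers MPO, CD14, LYZ and CSF1R summed to 25.8 to 27.0 CPM in Loucy with decitabine and 4.59 to 7.17 CPM in Loucy with DMSO, against 0 to 0.900 CPM with decitabine and 0.452 to 1.43 CPM with DMSO in PER-117. Whether the rises occurred in all cells was not tested. Of 19 NK and cytotoxic genes, 11 rose and 1 fell in Loucy, and 5 rose and 1 fell in PER-117, with 5 positive and 3 negative differences, and 2 and 3 without PER-117 DMSO replicate 3. There was 1 in each direction with all 30 libraries. The granule protease inhibitor gene CST7 and the repressor gene ID2 ran against the list, rising in PER-117 alone. ID2 averaged 37.5 ± 4.3 CPM with decitabine and 42.9 ± 2.1 CPM with DMSO in Loucy and 30.9 ± 0.8 CPM with decitabine and 6.21 ± 0.40 CPM with DMSO in PER-117 (difference -2.51 ± 0.18, adjusted p = 6.8e-08).

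Progenitor and T-cell genes gave differences in both directions. Of 23 stem and progenitor genes, 5 differences were positive and 4 negative, or 4 and 1 with all 30 libraries. CD33 averaged 19.9 ± 1.5 CPM with decitabine and 6.57 ± 0.17 CPM with DMSO in Loucy and 44.6 ± 7.1 CPM with decitabine and 53.4 ± 8.8 CPM with DMSO in PER-117. MECOM, a stem cell factor gene, averaged 3.71 ± 0.95 CPM with decitabine and 0.151 ± 0.072 CPM with DMSO in Loucy and 14.9 ± 2.0 CPM with decitabine and 9.62 ± 0.48 CPM with DMSO in PER-117. FLT3 was under 1 CPM in Loucy, and its difference was lost without Loucy decitabine replicate 2. Of 34 T-cell identity genes, 7 rose and 12 fell in Loucy, and 2 rose and 10 fell in PER-117, with 8 falling in both. In Loucy 5 fell with all 30 libraries. IL7R, the interleukin-7 receptor gene, averaged 18.6 ± 1.4 CPM with decitabine and 6.28 ± 0.32 CPM with DMSO in Loucy and 9.40 ± 0.68 CPM with decitabine and 12.3 ± 1.6 CPM with DMSO in PER-117, a difference of 1.95 ± 0.21. GATA3, a T-lineage factor, averaged 198 ± 21 CPM with decitabine and 423 ± 62 CPM with DMSO in Loucy and 19.4 ± 4.2 CPM with decitabine and 12.4 ± 3.3 CPM with DMSO in PER-117, a difference of -1.74 ± 0.24 (adjusted p = 0.00011). Its rise in PER-117 was lost without PER-117 DMSO replicate 1 or decitabine replicate 3. TCF7, another T-lineage factor, rose in Loucy, and its difference of 1.46 ± 0.43 passed in 6 of 12 fits that left out a library. WT1, a T-ALL gene, averaged 13.2 ± 0.8 CPM with decitabine and 2.85 ± 0.42 CPM with DMSO in Loucy and 3.17 ± 1.12 CPM with decitabine and 1.99 ± 0.67 CPM with DMSO in PER-117, and its difference was lost without PER-117 DMSO replicate 2.

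Of 19 genes of the DNA methylation machinery, 1 rose and 5 fell in Loucy and 1 rose in PER-117. Of 15 genes of decitabine uptake and metabolism, 6 fell in Loucy and 1 rose and 1 fell in PER-117. With all 30 libraries 3 genes of the methylation list and 2 of the uptake list fell in Loucy. Differences in the methylation list were 1 positive and 2 negative, and 1 and 1 with all 30 libraries. In the uptake list they were 0 and 3, and 0 and 0 with all 30 libraries. EZH2, a histone methyltransferase gene, averaged 1.61 ± 0.48 CPM with decitabine and 0.242 ± 0.084 CPM with DMSO in Loucy and 135 ± 7 CPM with decitabine and 126 ± 8 CPM with DMSO in PER-117, so Loucy remained far below. Its difference of 2.60 ± 0.36 was lost when reads were counted without strand. DNMT3B, a de novo methyltransferase gene, averaged 126 ± 13 CPM with decitabine and 266 ± 29 CPM with DMSO in Loucy and 61.8 ± 10.3 CPM with decitabine and 79.8 ± 6.7 CPM with DMSO in PER-117, with a difference of -0.71 ± 0.18 (adjusted p = 0.018) that passed in 7 of 12 fits that left out a library. DNMT3A was at 153 ± 4 CPM with decitabine and 184 ± 16 CPM with DMSO in Loucy and 68.2 ± 1.7 CPM with decitabine and 49.3 ± 0.8 CPM with DMSO in PER-117. Its difference was -0.73 ± 0.14, but its fall in Loucy passed in only 3 of 12 such fits and not with relative log expression scaling. DCK, the kinase that activates decitabine, averaged 23.4 ± 2.3 CPM with decitabine and 32.8 ± 8.1 CPM with DMSO in Loucy and 21.8 ± 3.4 CPM with decitabine and 16.2 ± 1.3 CPM with DMSO in PER-117, and its difference of -0.92 ± 0.24 passed in 7 of 12. RRM2B, the p53-induced ribonucleotide reductase subunit gene, averaged 17.7 ± 0.7 CPM with decitabine and 15.7 ± 1.0 CPM with DMSO in Loucy and 19.6 ± 0.7 CPM with decitabine and 9.62 ± 0.93 CPM with DMSO in PER-117 (difference -0.85 ± 0.19). The difference for its partner RRM2 passed in 3 of 12.

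Of 40 MYC and ribosome biogenesis genes, 24 fell and 2 rose in Loucy and 28 fell and 1 rose in PER-117, with 21 falling in both and 1 called difference. The falls were 60.0% and 70.0% of the list, against 10.1% and 6.44% of all genes, and with all 30 libraries 15 and 17 genes fell. NOP56, a nucleolar protein gene chosen after its values were seen, averaged 213 ± 9 CPM with decitabine and 297 ± 29 CPM with DMSO in Loucy and 205 ± 7 CPM with decitabine and 242 ± 19 CPM with DMSO in PER-117, and passed in Loucy but not in PER-117 (adjusted p = 0.11). Of 28 cholesterol synthesis genes, 9 fell in Loucy and 14 in PER-117, 8 of them in both, and 4 and 11 with all 30 libraries.

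Cancer-testis and germline genes, which methylation keeps silent in most somatic cells, rose in both lines. Of 53 on the list, 22 passed the filter, 19 of them with their decitabine libraries, so their counts support nothing by themselves. Of these 13 rose in Loucy and 22 in PER-117, with 13 rising in both. With genes at 0 reads set to the floor the medians were 2.30 and 4.53. Called differences numbered 4, 1 positive and 3 negative. A difference can hardly be called where the DMSO groups are at or near 0 reads, so the few calls do not show similar responses. PNMA5 averaged 4.41 ± 1.38 CPM with decitabine and 0.210 ± 0.188 CPM with DMSO in Loucy and 237 ± 82 CPM with decitabine and 0.186 ± 0.172 CPM with DMSO in PER-117, and its difference was lost without Loucy DMSO replicate 2. MAGEA4, chosen after its values were seen, had 0.179 ± 0.095 CPM in treated Loucy and 11 ± 1.1 CPM in treated PER-117, with 0 reads with DMSO in either, and was at least 2.83-fold and 99.7-fold higher. Its call in Loucy was lost without Loucy decitabine replicate 1. STK31, a germ cell kinase gene, had 0 reads in PER-117 with DMSO and was at least 5.90-fold higher there, and was at 1.28 ± 0.32 CPM with decitabine and 1.01 ± 0.33 CPM with DMSO in Loucy. Of 14 imprinted genes, 6 rose in Loucy and 9 in PER-117. CDKN1C, which encodes the inhibitor p57, rose in both, to 15.6 ± 0.5 CPM with decitabine against 0.507 ± 0.158 CPM with DMSO in Loucy and to 34.8 ± 3.5 CPM with decitabine against 3.40 ± 1.01 CPM with DMSO in PER-117. MEST stayed at 52.6 ± 4.0 CPM with decitabine and 53.7 ± 6.6 CPM with DMSO in Loucy and reached 0.723 ± 0.299 CPM in PER-117 with decitabine. TP73, a p53 relative, reached 1.12 ± 0.39 CPM in Loucy with decitabine and was at 31.1 ± 1.5 CPM with decitabine and 31.4 ± 1.2 CPM with DMSO in PER-117.

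Further lists held single-line changes of the same kinds. Of 29 amino acid and endoplasmic reticulum stress genes, 11 rose and 2 fell in Loucy and 6 rose and 8 fell in PER-117. With all 30 libraries 1 rose in Loucy and 1 difference was called. SLC7A11, the cystine transporter gene, averaged 36.4 ± 4.2 CPM with decitabine and 21.4 ± 3.3 CPM with DMSO in Loucy and 45.8 ± 6.6 CPM with decitabine and 61.0 ± 7.7 CPM with DMSO in PER-117, but its fall in PER-117 passed in 8 of 12 fits that left out a library. CTH, an enzyme of cysteine synthesis, rose in PER-117 alone (difference -2.68 ± 0.57). Of 33 apoptosis regulators, 9 rose and 6 fell in Loucy and 7 rose and 3 fell in PER-117. CASP9, the initiator caspase gene, averaged 10.4 ± 1.4 CPM with decitabine and 8.45 ± 1.04 CPM with DMSO in Loucy and 1.67 ± 0.38 CPM with decitabine and 0.291 ± 0.128 CPM with DMSO in PER-117. Of 38 activation and AP-1 genes, DUSP1, a MAP kinase phosphatase gene, averaged 9.30 ± 1.14 CPM with decitabine and 14.3 ± 2.3 CPM with DMSO in Loucy and 5.23 ± 0.51 CPM with decitabine and 2.29 ± 0.27 CPM with DMSO in PER-117. Its fall in Loucy was lost without Loucy DMSO replicate 2 or decitabine replicate 1. SOCS3, a cytokine signal inhibitor, rose in PER-117 alone (difference -2.05 ± 0.49). Of 18 heat shock genes 8 fell in Loucy and 4 in PER-117, and BAG3 had the single called difference, which was lost without PER-117 DMSO replicate 1 or 2 or decitabine replicate 1. Of 10 erythroid and megakaryocyte genes, 1 rose in Loucy and 7 in PER-117. Only 10 of 24 on this list passed the filter, 5 with their decitabine libraries, and at a minimum count of 50 there were 5 left, of which 3 rose in PER-117, so the count supports nothing by itself. The platelet integrin gene ITGA2B averaged 48.9 ± 0.8 CPM with decitabine and 39.8 ± 3.9 CPM with DMSO in Loucy and 7.44 ± 2.33 CPM with decitabine and 1.91 ± 0.82 CPM with DMSO in PER-117. HBA2, chosen after its values were seen and near-identical to HBA1, averaged 5.74 ± 1.56 CPM in PER-117 with decitabine and had 0 reads in the other 9 libraries. Called differences numbered 2 among 20 NOTCH genes, 4 among 27 T-ALL oncogenes, 4 among 18 B-cell genes and 2 among 8 epithelial and stromal genes, of which 4 passed the filter with their decitabine libraries. Over all genes tested 9.41% had a called difference, and the NOTCH count is near that share. Of 12 nucleic acid sensing genes 1 rose and 1 fell in Loucy and 1 fell in PER-117, and of 7 MHC class II genes 2 rose and 2 fell in Loucy.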

How the data were processed

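Total RNA from human T-ALL cell lines was made into 3′ mRNA libraries. The submitters' processing notes name STAR 2.4.2a, DESeq2 and the build GRCh38/hg38, and the sources used here give no annotation release. The deposited files hold raw counts per gene, unstranded and for each strand; the counts of the sense strand were used, and unmapped or ambiguous entries (2.81% to 5.89% of reads unmapped) were left out. Symbols of 56996 of 60554 gene IDs came from a GENCODE 29 table.

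Counts of 12 libraries (9.93 M to 15.4 M reads on genes) were fitted with edgeR 4.0.16 in R 4.3.3 with 1 mean per group, TMM scaling, a minimum count of 10 in filterByExpr and Benjamini-Hochberg adjustment within each contrast over 15255 genes, with 0.05 as the threshold and 8 residual degrees of freedom. The SE is the absolute log2 change over the square root of F. At 0 reads in a group, folds were taken against 3 reads over that group, and ratios with 1 to 3 reads carry exact 95% intervals, which cover counting error only. On data simulated from these libraries, 61.5% of 96 genes with a 2-fold and 89.0% of 100 with a 4-fold difference of responses were recovered. There were 11 false calls. The simulation gave both lines the same untreated level and changed only genes averaging over 1 CPM. These rates therefore do not cover genes that are low in a single line.

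Named genes are protein-coding, reach 5 CPM in a group mean and have treatment groups that do not overlap where called. They are the largest 8 shared rises, 5 shared falls, 8 opposite genes in each direction, 4 single-line rises for each untreated level and 5 single-line falls for each line, and, for lists, up to 4 members with the largest called difference. Some genes this rule names are not reported here. Members, lists and tests were chosen with earlier results of these data known. The alternatives were DESeq2 1.42.0, relative log expression scaling, other filters, a threshold of 0.01, unstranded counts, all 30 libraries, a replicate block and leaving out each library.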

Additional observations from a re-analysis of the deposited data

Results flagged for a closer look

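The responses of the 2 lines differed by the test of the difference itself (edgeR, Benjamini-Hochberg adjusted p under 0.05) for each named gene below. Values are the log2 response in Loucy minus that in PER-117, and for genes with a group at or near 0 reads the fitted value is no bound on the change. The response was higher in Loucy for PRSS35 11.03, RHOB 8.65, PRDM8 7.57, NFIA 7.2, ZFYVE28 6.93, EMP1 6.87, FLT3 5.42 and CEBPA 5.33. Values further down that order were TOX2 5.16, TP73 5.14, MPO 5.13, LTA 4.40, EVPL 4.37, IFIT3 4.28, CHRNA9 4.24, SCN3A 4.23 and GZMA 3.95. They were followed by RNF165 3.91, MECOM 3.89, TNF 3.78, OAS1 3.74, CD109 3.62, IFI44L 3.6, CLEC12A 3.17, MTSS1 3.10 and RNF152 3.08. Next came DDN 3.05, TNFSF14 2.87, SNAI1 2.63, EZH2 2.60, LTB 2.59, EPS8L2 2.47, TNFRSF1B 2.29, APLN 2.19 and RARRES3 2.11. Then came SERINC2 2.02, CTSG 1.99, IL7R 1.95, SUSD4 1.93, TNFRSF8 1.91, SLC9A9 1.89, CD33 1.85, TRPM2 1.64 and ERAP2 1.59. After these stood CDKN1C 1.58, WT1 1.57, TCF7 1.46, SLC7A11 1.17 and NLRC5 0.88.

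The response was lower in Loucy for FAM210B -7.49, BTBD6 -7.2, ZNF836 -6.76, PNMA5 -6.02, HHEX -5.96, STK31 -5.70, CST7 -4.77 and TP53INP1 -4.49. The following values were PLK2 -4.03, MEST -3.98, ESAM -3.74, GCNA -3.63, C8orf88 -3.6, LAPTM4B -3.54, ANKRD9 -3.42, CLIP3 -3.38 and TSHZ3 -3.27. Smaller differences were found for HSD3B7 -3.16, CTH -2.68, ID2 -2.51, GPC2 -2.46, PHLDA3 -2.46, PLXNB1 -2.44, HERC5 -2.25, PRKAR2B -2.18 and CASP9 -2.16. Below these lay CDH2 -2.13, SOCS3 -2.05, ENOSF1 -2.01, HIST1H1D -2.01, DIXDC1 -1.90, HIST1H1B -1.82, DUSP1 -1.82 and ST3GAL4 -1.75. Further genes were GATA3 -1.74, TUBB2A -1.73, ITGA2B -1.63, FDXR -1.60, FAM72D -1.50, ADRB1 -1.48, BAG3 -1.47, CDKN1A -1.41 and CENPE -1.36. Differences closer to 0 were CENPF -1.29, HMMR -1.18, DCK -0.92, ASPM -0.89, RRM2B -0.85, DNMT3A -0.73, DNMT3B -0.71 and RRM2 -0.53.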

How the results depend on the processing

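No called response or difference of a named gene changed sign under the alternatives run. Which direction held more genes did turn: differences were more often higher in Loucy when Loucy DMSO replicate 1 or any single Loucy decitabine library was left out. Opposite genes were more often those that rose in Loucy when any single Loucy library other than DMSO replicate 3 was left out, with relative log expression scaling (54 and 53), at an adjusted p under 0.01 and with all 30 libraries, and were 51 each with DESeq2. With all 30 libraries fitted together the differences were 285 higher and 316 lower in Loucy, the responses in Loucy 1595 and 623, those in PER-117 1308 and 477, the shared 464 and 130, the opposite 9 and 5, those of Loucy alone 209 and 48 and of PER-117 alone 233 and 34, rises first, and 597 of the 1436 differences were shared. At an adjusted p under 0.01 the same counts were 293 and 363, 1590 and 734, 1268 and 454, 458 and 132, 19 and 14, 209 and 59, and 245 and 39. Without a filter 108 genes fell in Loucy and rose in PER-117, and with DESeq2 180 fell in PER-117 alone. By untreated level, in the order low in both, low in the line that rose and low in neither, DMSO replicate 1 alone gave 0.927%, 8.41% and 1.22% for Loucy alone and 0.361%, 4.35% and 1.44% for PER-117 alone. Without a filter the share low in both was 0.308% for Loucy alone, and PER-117 alone had 0.11%, 9.4% and 3.21%. With low taken as 0.5 CPM, Loucy alone had 3.86% of genes low in both and 0.117% of genes low in PER-117, and PER-117 alone had 6.21% of genes low in PER-117. The causes were not tested.

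Leaving out each library gave 421 to 717 differences higher and 490 to 870 lower in Loucy, 2048 to 2580 rises and 884 to 1662 falls in Loucy, and 1570 to 2143 rises and 573 to 1413 falls in PER-117. Shared rises were 687 to 812 and shared falls 220 to 401, opposite genes 27 to 63 and 24 to 72, Loucy alone 288 to 380 and 77 to 224, and PER-117 alone 302 to 443 and 58 to 185. Lower differences were 523 and 490 without Loucy decitabine replicates 1 and 3 and 556 without Loucy DMSO replicate 1, and falls in Loucy were 967 and 884 without those decitabine libraries. Without PER-117 DMSO replicate 2 or decitabine replicate 1, falls in PER-117 were 629 and 573, shared falls 240 and 220, and falls of PER-117 alone 64 and 58, which were 185 without Loucy DMSO replicate 3. Genes that rose in Loucy and fell in PER-117 were 29 without PER-117 DMSO replicate 3 and 27 without PER-117 decitabine replicate 2. The reverse were 34 and 38 without Loucy DMSO replicates 1 and 2, 24, 41 and 24 without Loucy decitabine replicates 1 to 3, and 44 and 43 without PER-117 DMSO replicate 2 and decitabine replicate 1. Falls of Loucy alone were 119 and 130, then 84, 146 and 77, without the same Loucy libraries, 138 and 145 without PER-117 DMSO replicates 1 and 2 and 126 without PER-117 decitabine replicate 1. Leaving out genes under 2% of the other line's level, an alternative chosen after seeing the data, left 340 rises of Loucy alone and 429 of PER-117 alone.

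The replicate numbers were not shown to pair the samples: deviations of same-numbered libraries correlated at 0.021, -0.043 and -0.016 in Loucy and at 0.058, 0.11 and 0.161 in PER-117. A replicate block kept 1377 of the 1436 called differences. None of the 8 named shared rises with at most 2 reads in each DMSO group had a called difference at this depth, where one can hardly be called.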
